A study of Mus musculus with 48 samples.

Results

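The comparison asked whether kidney slices of 2 inbred mouse strains changed differently between 6 h and 24 h in culture. It used the 36 libraries labelled control, tunicamycin or cyclosporin at 6 h or 24 h, of 48 in the series, chosen by those labels alone. Each strain and time held 9 libraries: 3 of control slices, 3 with tunicamycin and 3 with cyclosporin A, which makes 12 groups of 3. All slices came from male mice, either C57BL/6J or DBA/2J, whose crosses gave rise to the BXD recombinant inbred lines, and were cultured outside the body. The labels give no dose, mouse age or oxygen level for these groups. They number 3 biological replicates per group but do not say whether slices with the same number came from the same mouse, so the p-values measure the spread between these samples. The 12 libraries under changed oxygen were not used. The libraries held between 12384733 and 23584681 counts each (median 19410503).

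A slice of kidney keeps tubules, glomeruli, vessels and resident immune cells together, but loses blood flow, and its tubule cells are known to lose transporter expression and to switch on injury and inflammatory genes in culture. Cutting is also known to set off stress programmes. In one of them, the heat shock response, the transcription factor HSF1 drives genes for chaperones, proteins that hold or refold other proteins. Tunicamycin blocks protein glycosylation in the endoplasmic reticulum, and cyclosporin A inhibits calcineurin and is toxic to tubules. The test reported here was the interaction: the log2 change from 6 h to 24 h in DBA/2J minus the same change in C57BL/6J, with treatment as a covariate. A positive value means that the gene rose more, or fell less, in DBA/2J slices.

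Most genes changed with time in each strain. Of 16849 genes tested, 13140 (78%) passed the test in C57BL/6J, as 6297 rises (37.4%) and 6843 falls (40.6%). In DBA/2J 13366 (79.3%) passed, as 6632 rises (39.4%) and 6734 falls (40%). The threshold was an adjusted p under 0.05 by edgeR's quasi-likelihood test with Benjamini-Hochberg adjustment. Across genes the strains' log2 changes had a Pearson correlation of 0.906 and a Spearman correlation of 0.913, over 16849 genes that are not independent of one another and with no library shared between the strains. In total 11553 genes changed in the same direction in both strains and 161 in opposite directions. The interaction passed the same threshold for 2420 genes (14.4%), 1368 positive (8.12%) and 1052 negative (6.24%). Among them 375 were beyond 1 on the log2 scale, 257 positive and 118 negative. Over all genes tested the median interaction was 0.05. The median absolute interaction was 0.19 over all genes tested and 0.46 over those called. The split by direction moved with the scaling and with the genes tested: 56.5% of calls were positive here, 47.9% with median-ratio size factors, 38.5% when mitochondrial genome genes were left out, and 37.7% with no filter on low counts. Summing the counts of the 3 treatments with the same strain, time and replicate number left 12 sums, in which 548 genes were called, 529 of them among the 2420.

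**Figure D1:**
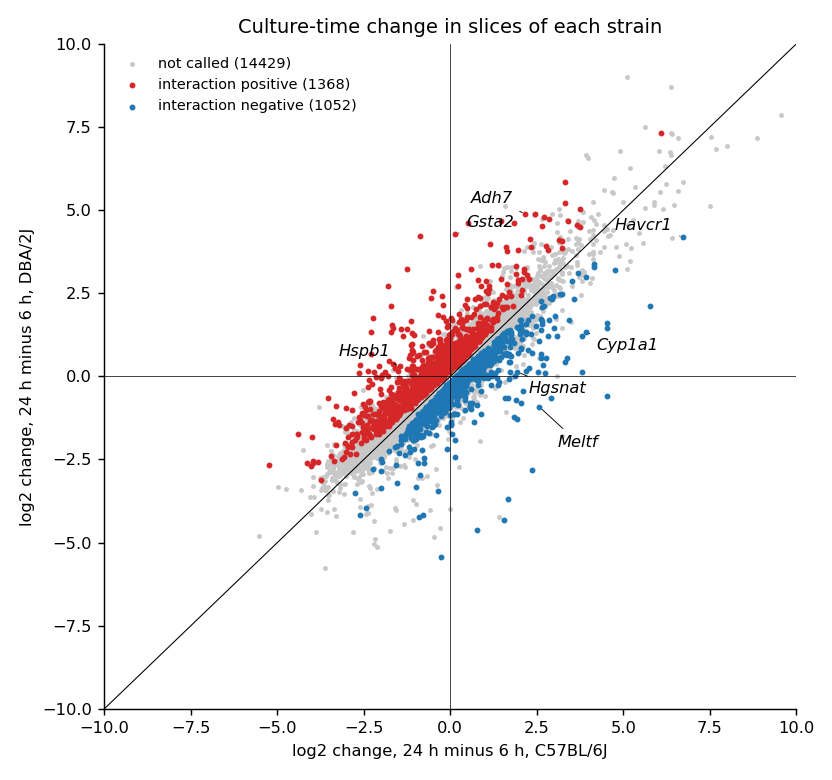
Each point is 1 of 16849 genes, placed by its log2 change from 6 h to 24 h in C57BL/6J slices (horizontal axis) and in DBA/2J slices (vertical axis). The diagonal marks equal change, and the 1368 genes with a called positive interaction lie above it and the 1052 with a negative one below it; Gsta2 changed by 0.14 in C57BL/6J and by 4.28 in DBA/2J.

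The called genes were sorted by how each strain moved. Among the positive ones, 396 rose in both strains and 395 fell in both, so that the strains differed in size and not in direction. A further 270 passed the time test only as a rise in DBA/2J, 219 only as a fall in C57BL/6J, and 87 fell in C57BL/6J and rose in DBA/2J. Among the negative ones, 337 rose in both strains and 295 fell in both. Another 175 passed it only as a fall in DBA/2J, 170 only as a rise in C57BL/6J, and 74 rose in C57BL/6J and fell in DBA/2J. The remaining 2 genes, 1 of each sign, passed the time test in neither strain. At 6 h alone the strains differed for 9382 genes (55.7%), and at 24 h alone for 7614 (45.2%). Of the 2420 genes, 1096 (45.3%) differed between strains at 6 h and not at 24 h by the threshold, and 459 (19%) at 24 h and not at 6 h. A difference of the same sign at both times was smaller at 24 h for 452 genes (18.7%) and larger for 207 (8.55%), and 187 (7.73%) changed sign. These strain differences come from the libraries that also gave the interaction, so they describe its form and are no separate evidence.

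Most heat shock genes fell in C57BL/6J slices: 13 of 15, beside 40.6% of all genes. In DBA/2J 6 fell and 4 rose, beside 40% and 39.4% of all genes, so the DBA/2J counts did not exceed those shares. Of the 15 listed chaperone and co-chaperone genes, all tested, 14 had a positive interaction past the threshold and none a negative one, beside 8.12% and 6.24% of all genes. Their median interaction was 1.02, against 0.0493 over all genes tested. The median change from 6 h to 24 h was -1.24 in C57BL/6J and 0.17 in DBA/2J. The strains stood apart mainly at the early time: the median DBA/2J minus C57BL/6J difference was -0.90 at 6 h and 0.03 at 24 h. At 6 h every C57BL/6J library was above every DBA/2J library for 10 of the 15 genes, where 6.67% of all genes showed this, and the reverse held for 1 gene, Hspb8 (9.37% of all genes). At 24 h C57BL/6J lay wholly above for 1 gene (5.59% of all genes) and DBA/2J for 3 (6.78%). The called members numbered 13 or 14 with any 1 library left out, 12 with no filter on low counts and 11 in the sums. All 14 called members were positive in the control, tunicamycin and cyclosporin libraries taken alone. Of all 2420 called genes 98.3% had 1 sign in the 3 treatments, and these libraries are part of the pooled fit, so this is a description.

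Hspb1, the small heat shock protein HSP27, had the smallest p-value of the list. In CPM, the count set relative to a library's TMM-scaled total, it lay between 405 and 852 (median 585) in C57BL/6J at 6 h and between 181 and 275 (235) at 24 h. In DBA/2J it lay between 116 and 236 (172) at 6 h and between 180 and 258 (190) at 24 h. The 9 C57BL/6J libraries at 6 h were thus above all others, while the strains overlapped at 24 h. Hspb1 fell by 1.45 in C57BL/6J and rose by 0.30 in DBA/2J, an interaction of 1.75 ± 0.17 (SE, 9 libraries per strain and time; edgeR adjusted p = 3.3e-09). Control, tunicamycin and cyclosporin libraries alone gave 1.74, 1.51 and 1.96.

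Hspa1a and Hspa1b encode the inducible HSP70 and are nearly identical, so the division of reads between them is uncertain. Hspa1b lay between 1092 and 3200 CPM (1537) in C57BL/6J at 6 h and between 426 and 722 (599) at 24 h. In DBA/2J it lay between 336 and 614 (475) at 6 h and between 426 and 741 (550) at 24 h. Again only the C57BL/6J slices at 6 h were separate from the rest. The interaction was 1.85 ± 0.23 for Hspa1b and 1.69 ± 0.23 for Hspa1a (SE; edgeR adjusted p = 7.1e-07 and 6.0e-06), and neither gene passed the time test in DBA/2J.

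The remaining members are all given, a choice made after the list's count was seen. Hsph1, a nucleotide exchange factor for HSP70, fell by 1.47 in C57BL/6J and changed by -0.05 in DBA/2J without passing the test. Bag3, another exchange factor, fell by 0.95 in C57BL/6J and rose by 0.22 in DBA/2J. Dnajb1, an HSP40 co-chaperone, fell by 1.78 and by 0.41, with medians of 374 and 118 CPM in C57BL/6J and 220 and 164 in DBA/2J. Its order between strains turned over, with DBA/2J 0.90 lower at 6 h and 0.47 higher at 24 h, and at 24 h its 9 DBA/2J libraries were all above the C57BL/6J ones. Dnaja1 and Dnajb4, from the same co-chaperone family, fell in both strains, with interactions of 0.85 and 0.66. Hspa8, the constitutive HSP70, fell by 0.90 and by 0.21, an interaction of 0.69.

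Of the HSP90 genes, the inducible one had the larger interaction. Hsp90aa1, the inducible form, fell by 0.84 in C57BL/6J and was 0.18 higher at 24 h in DBA/2J without passing the test, an interaction of 1.02. Hsp90ab1, the constitutive form, fell by 0.25 in C57BL/6J and rose by 0.22 in DBA/2J, an interaction of 0.46, and it was the only member wholly higher in C57BL/6J at 24 h. The mitochondrial chaperonin pair Hspd1 and Hspe1 fell in both strains, with interactions of 0.57 and 0.67. Cryab, a small heat shock protein abundant in muscle and lens, rose in both strains, by 1.12 in C57BL/6J and 2.62 in DBA/2J. Its medians at 6 h and 24 h were 152 and 409 CPM in C57BL/6J and 119 and 749 in DBA/2J, and at 24 h all DBA/2J libraries were above all C57BL/6J ones. Hspb8 was the only member not called, with an interaction of -0.18 ± 0.13 (SE; edgeR adjusted p = 0.37).

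**Figure D2:**
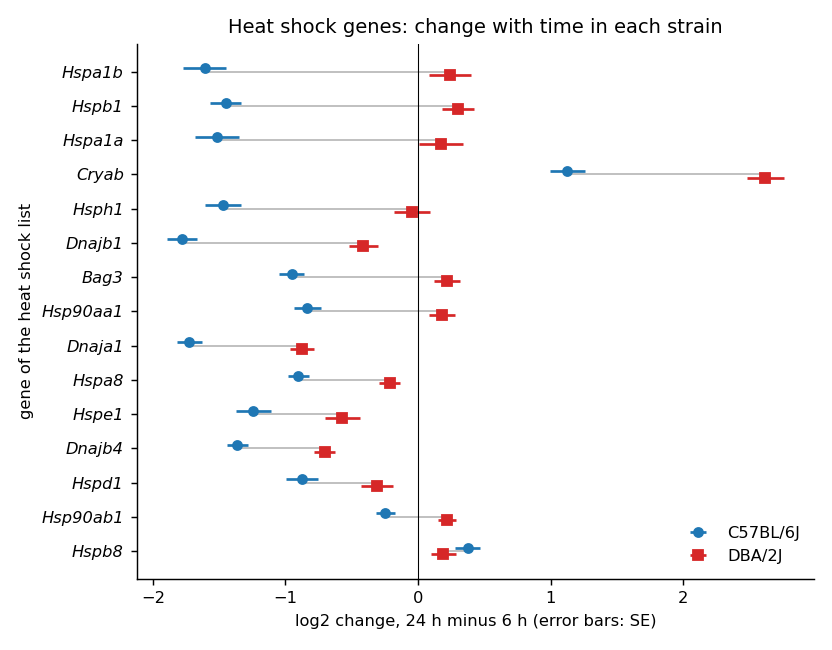
For each of the 15 heat shock genes (vertical axis), circles give the log2 change from 6 h to 24 h in C57BL/6J and squares that in DBA/2J, with SE as error bars. The DBA/2J square lies to the right of the C57BL/6J circle for 14 genes, and Hspb8 is the exception.

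HSF1 binds inverted repeats of the bases GAA, and the shortest paired form, GAANNTTC, reads the same on both strands. RefSeq promoter windows of 300 bases, 250 before and 50 after the transcript start on GRCm38.p6, were found for 11 of the 15 genes. At least 1 window held the motif for 9 of these 11 genes, as for 9.04% of 27025 genes. Counted by window, 10 of their 17 promoters held it, as did 7.86% of 32851 promoters. A match describes letters only. Stretches with a match before the start are printed for 4 of the called members, with the motif in capitals and 50 bases on each side, 5′ to 3′ on the gene's strand. They lie at chr17:34959285-34959392 (minus strand, Hspa1b), chr5:135887752-135887879 (plus strand, Hspb1), chr4:40722294-40722401 (plus strand, Dnaja1) and chr1:55088014-55088121 (plus strand, Hspe1).
Hspa1b: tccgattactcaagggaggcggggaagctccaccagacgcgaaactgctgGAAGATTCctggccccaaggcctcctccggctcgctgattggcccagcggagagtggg
Hspb1: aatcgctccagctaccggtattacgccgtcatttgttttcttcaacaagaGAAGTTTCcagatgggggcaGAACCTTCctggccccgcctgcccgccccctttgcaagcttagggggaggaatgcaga
Dnaja1: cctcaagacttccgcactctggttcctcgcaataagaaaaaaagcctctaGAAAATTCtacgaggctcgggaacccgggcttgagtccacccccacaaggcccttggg
Hspe1: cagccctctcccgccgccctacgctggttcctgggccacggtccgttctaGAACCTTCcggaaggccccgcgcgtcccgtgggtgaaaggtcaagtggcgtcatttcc

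The match begins 104 bases before the start in Hspa1b, 124 in Dnaja1 and 84 in Hspe1, and Hspb1 has matches at 117 and 97. Hspa1a carries the same 108 bases as Hspa1b. Hspe1 and Hspd1 are divergent neighbours, and the Hspe1 stretch is also the promoter of Hspd1 read from the other strand. Hspb8 held a match too although its interaction was not called, while Dnajb1 and Dnajb4 held none of these letters in the window.

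Gsta2, an alpha-class glutathione transferase that detoxifies reactive compounds, had the largest positive interaction among the genes named by rule. Its gene (ENSMUSG00000057933) lies at chr9:78331018-78355788 on GRCm38. In C57BL/6J it lay between 54.7 and 119 CPM (88.1) at 6 h and between 63.8 and 148 (98.7) at 24 h. DBA/2J slices held between 4.49 and 8.63 CPM (5.18) at 6 h and between 87.8 and 137 (106) at 24 h. The 9 DBA/2J libraries at 6 h were below all others, and by 24 h the strains overlapped. The interaction was 4.14 ± 0.21 (SE; edgeR adjusted p = 3.0e-16), from a rise of 4.28 in DBA/2J and a change of 0.14 in C57BL/6J that did not pass the test. The 3 treatments alone gave 4.30, 4.17 and 3.88. Gm10639, a neighbouring gene of the same class at chr9:78289923-78305525 that was looked at after the values were seen, rose by 1.85 in C57BL/6J and 4.61 in DBA/2J. Reads shared among such relatives make each one's value uncertain; of 5 alpha-class genes tested, a family looked at after these values were seen, 2 were called, beside 14.4% of all genes.

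The list of NRF2 targets and glutathione genes, many of which the transcription factor NRF2 activates under oxidant stress had 20 members, Gsta2 among them. Of these 8 were called, 3 positive and 5 negative (8.12% and 6.24% of all genes), with a median interaction of -0.15, and 4 were called in the sums. Gsr, glutathione reductase, lay between 64.8 and 85.9 CPM (71.2) in C57BL/6J at 6 h and between 177 and 207 (193) at 24 h. The DBA/2J range was between 126 and 157 (139) at 6 h and between 208 and 266 (241) at 24 h. DBA/2J libraries were above all C57BL/6J libraries at each time, and the gap narrowed: Gsr rose by 1.43 in C57BL/6J and 0.75 in DBA/2J (interaction -0.68 ± 0.07, SE; edgeR adjusted p = 1.8e-08). Taldo1, an enzyme of the pentose phosphate pathway, rose by 2.00 and by 1.38, an interaction of -0.62.

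Genes of xenobiotic metabolism included a large negative value. Cyp1a1, the classic target of the aryl hydrocarbon receptor, lay between 0.49 and 1.5 CPM (1.13) in C57BL/6J and between 0.887 and 1.65 (1.11) in DBA/2J at 6 h. Its 24 h levels lay between 9.93 and 21.4 (16.3) in C57BL/6J and between 1.39 and 4.30 (3.22) in DBA/2J. The strains overlapped at 6 h and were fully separate at 24 h, with C57BL/6J higher. Cyp1a1 rose by 3.91 in C57BL/6J and 1.33 in DBA/2J, an interaction of -2.58 ± 0.28 (SE; edgeR adjusted p = 3.0e-08). The receptor gene Ahr, whose C57BL/6J and DBA/2J alleles are known to differ in ligand binding and which was looked at after the values were seen, had an interaction of -0.10 (adjusted p = 0.71). Cyp27b1, which activates vitamin D, rose by 1.19 in C57BL/6J and changed by 0.02 in DBA/2J without passing the test. The flavin oxygenase gene Fmo2 fell by 1.17 and by 2.27. Of 18 genes of cytochrome P450 and conjugation, 1 was called as positive and 4 as negative, beside 8.12% and 6.24% of all genes. Yet 14 lay above 0, as did 9647 of all 16849 genes, and the median was 0.56. The count was 2 in the sums, 3 without DBA/2J control 6 h replicate 1 or DBA/2J control 24 h replicate 2, and 9 without C57BL/6J tunicamycin 24 h replicate 2.

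**Figure D3:**
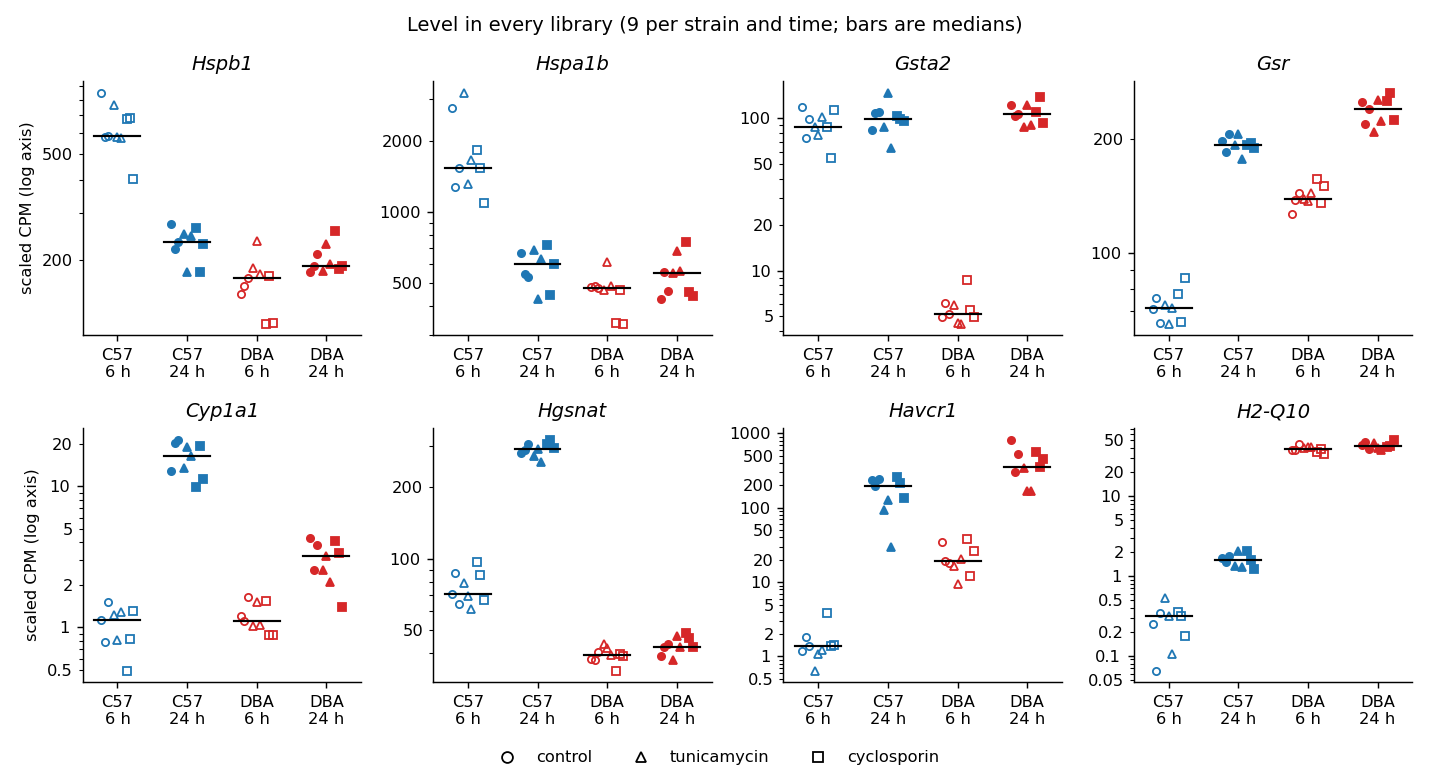
Each panel gives 1 gene's level in CPM on a log axis, with C57BL/6J in blue and DBA/2J in red, 6 h as open and 24 h as filled marks, and the mark's shape giving the treatment; bars are medians of 9 libraries. Hspb1 and Hspa1b are separate in C57BL/6J at 6 h, Gsta2 is separate in DBA/2J at 6 h, and Cyp1a1 overlaps between strains at 6 h and not at 24 h.

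Hgsnat, which encodes a lysosomal acetyltransferase for heparan sulfate, had the smallest p-value among the negative genes named by rule. The gene is at chr8:25944453-25976753, minus strand. It lay between 61.2 and 96.8 CPM (71.0) in C57BL/6J at 6 h and between 255 and 318 (289) at 24 h. Its DBA/2J libraries lay between 33.7 and 43.6 (39.3) at 6 h and between 37.2 and 48.6 (42.5) at 24 h. C57BL/6J was above DBA/2J in every library at both times, and the gap widened from 0.95 to 2.75. Hgsnat rose by 1.94 in C57BL/6J and changed by 0.14 in DBA/2J without passing the test (interaction -1.80 ± 0.10, SE; edgeR adjusted p = 2.7e-16). Its neighbour Pomk, a kinase for dystroglycan sugars at chr8:25980604-25994133 on the same strand, rose by 1.04 in C57BL/6J and changed by 0.04 in DBA/2J, an interaction of -1.0.

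Havcr1 encodes KIM-1, a receptor that injured proximal tubules display. Levels lay between 0.644 and 3.87 CPM (1.39) in C57BL/6J and between 9.49 and 37.5 (19.5) in DBA/2J at 6 h. By 24 h they were between 29.5 and 257 (198) in C57BL/6J and between 167 and 825 (350) in DBA/2J. The strains did not overlap at 6 h and overlapped at 24 h. Havcr1 rose in both, by 6.74 in C57BL/6J and 4.19 in DBA/2J, so that a strain gap of 3.84 at 6 h became 1.29 at 24 h (interaction -2.55 ± 0.42, SE; edgeR adjusted p = 8.4e-05). Its interaction was -2.75, -2.54 and -2.41 in the 3 treatments alone. The other injury marker fixed by name, Lcn2 (lipocalin 2), had an interaction of 0.98 ± 0.47 that did not pass (SE; edgeR adjusted p = 0.16). With 1 library left out its edgeR adjusted p lay between 0.0234 and 0.265, so whether it passed depended on the library. The 3 treatments alone gave 0.25, 0.77 and 1.88. Of 20 injury and failed-repair genes 5 were called, 2 positive and 3 negative (14.4% of all genes, 8.12% and 6.24% by direction), with a median of 0.18, and 2 were called in the sums. Krt8, a keratin of simple epithelia, was 0.14 lower at 24 h in C57BL/6J and 0.35 higher in DBA/2J, both past the test. Gdf15, a stress cytokine that p53 also activates, changed by -0.10 in C57BL/6J without passing the test and fell by 0.65 in DBA/2J.

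Among p53 targets all calls were negative: 6 of 15, beside 6.24% of all genes, with 2 in the sums and a median of -0.11 over the list. Bax, a pore-forming promoter of apoptosis, lay between 36 and 42 CPM (37.6) in C57BL/6J and between 40.6 and 49.2 (45.8) in DBA/2J at 6 h. The 24 h ranges were between 88.2 and 110 (97.7) and between 78.9 and 99.2 (87.8). The ranges overlapped at both times, with DBA/2J higher at 6 h and lower at 24 h in the fit. Bax rose by 1.37 and 0.94, an interaction of -0.43 ± 0.07 (SE; edgeR adjusted p = 2.4e-05). Ccng1, cyclin G1, rose by 0.34 in C57BL/6J and changed by 0.03 in DBA/2J without passing the test.

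Chemokines and cytokines had 11 of 23 tested members called, 8 positive and 3 negative, with a median of 0.56; over all genes 8.12% were positive and 6.24% negative. The count was 5 with no filter and 3 in the sums. Ccl2, which attracts monocytes, lay between 4.89 and 13.7 CPM (7.49) in C57BL/6J and between 10.7 and 29 (13.6) in DBA/2J at 6 h. At 24 h it lay between 26.6 and 47.1 (31.1) and between 17.3 and 38.3 (27.4). The strains overlapped at both times, and Ccl2 rose by 1.96 in C57BL/6J and 0.69 in DBA/2J (interaction -1.26 ± 0.29, SE; edgeR adjusted p = 0.0025). Cxcl1, a neutrophil attractant, rose by 1.74 and 0.87, an interaction of -0.87. Lif, an IL-6 family cytokine, rose by 0.46 and 1.43, an interaction of 0.97. In the list of NF-kappaB subunits and feedback genes 1 of 15 was called (14.4% of all genes), Nfkb2 at 0.43, and 0 with no filter or in the sums. That count was 3 or 4 without any 1 of 3 libraries: C57BL/6J control 6 h replicate 1, C57BL/6J tunicamycin 6 h replicate 3 and DBA/2J tunicamycin 6 h replicate 2.

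Immediate early and AP-1 genes, which respond within minutes to stress and growth signals, had 5 of 20 called, all positive, beside 8.12% of all genes, with a median of 0.24; 1 was called in the sums. Jun, a core AP-1 subunit, lay between 973 and 1256 CPM (1089) in C57BL/6J and between 688 and 861 (778) in DBA/2J at 6 h. At 24 h it lay between 376 and 486 (431) and between 396 and 512 (446). As with Hspb1 and Hspa1b, the strains were separate at 6 h with C57BL/6J higher, and they overlapped at 24 h. Jun fell by 1.38 in C57BL/6J and 0.77 in DBA/2J, an interaction of 0.61 ± 0.08 (SE; edgeR adjusted p = 1.3e-06). Egr1, an early zinc finger factor, fell by 2.12 and 1.36. Maff, a small MAF protein, changed by -0.00 in C57BL/6J without passing the test and rose by 0.43 in DBA/2J.

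The unfolded protein and integrated stress response, which tunicamycin triggers, had 2 of 20 called, both positive, and 0 in the sums, a share near the 8.12% of all genes. Chac1, a glutathione-degrading enzyme, fell by 1.12 in C57BL/6J and changed by 0.18 in DBA/2J without passing the test. Atf3, a stress factor also on the early list, fell by 2.18 and 1.41. Hspa5, the chaperone BiP, and Ddit3, the factor CHOP, had interactions of 0.36 ± 0.19 and 0.37 ± 0.20 (SE; edgeR adjusted p = 0.21 and 0.23). In hypoxia and glycolysis, 5 of 20 were called, 1 positive and 4 negative (8.12% and 6.24% of all genes), with a median of -0.08 and 1 call in the sums. Ankrd37, a target of hypoxia-inducible factor, rose by 2.06 and 1.36, and the glycolytic enzyme gene Tpi1 by 0.91 and 0.63. Ndrg1, which is induced by hypoxia, fell by 0.22 and 0.59. The growth factor gene Vegfa had an interaction of -0.00 ± 0.15 and the glucose transporter gene Slc2a1 of 0.18 ± 0.16 (SE; edgeR adjusted p = 0.99 and 0.50).

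**Figure D4:**
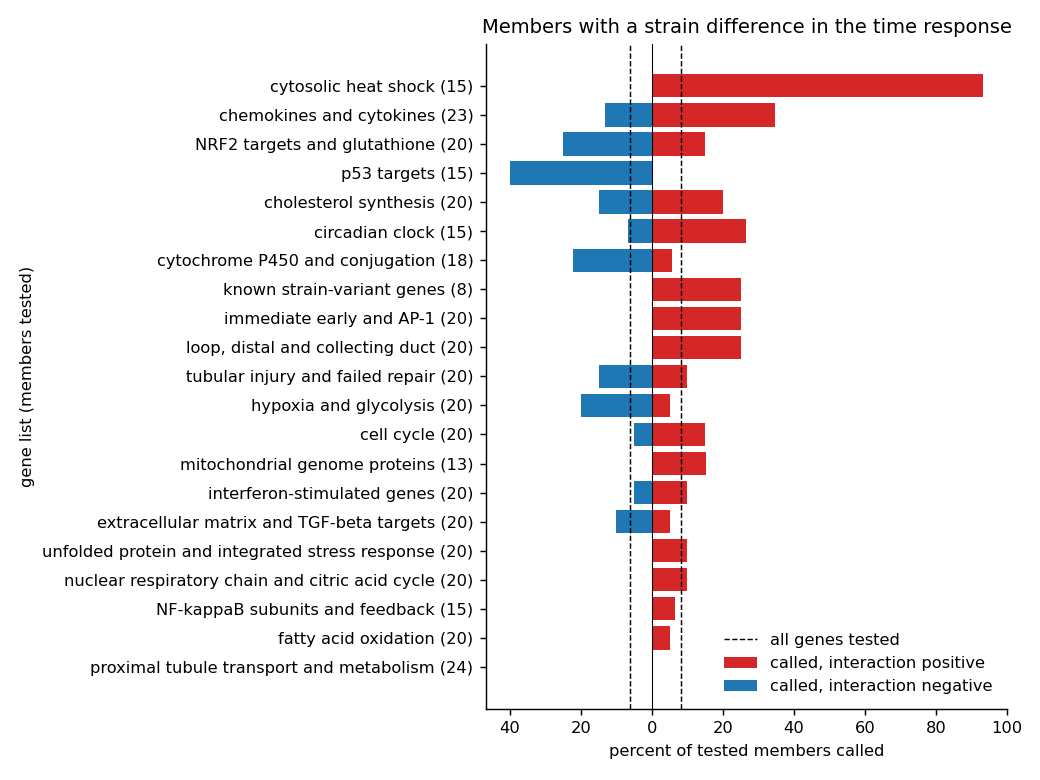
Bars give the percent of each list's tested members (number in brackets) with a called interaction, positive to the right and negative to the left, and dashed lines give the shares over all genes tested, 8.12% and 6.24%. The heat shock list has 14 of 15 members to the right, and the p53 targets have 6 of 15 to the left.

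Nephron segment genes fell in both strains. All 24 proximal tubule transport and metabolism genes fell, with a median change of -2.82 in C57BL/6J and -2.22 in DBA/2J. Of all genes 40.6% fell in C57BL/6J and 40% in DBA/2J. Their summed level lay between 8110 and 24600 CPM (14700) at 6 h and between 1470 and 4220 (2180) at 24 h in C57BL/6J. The DBA/2J sum lay between 17900 and 29600 (26200) at 6 h and between 3160 and 7890 (5370) at 24 h. In bulk slices, fewer cells of a type and less RNA per cell cannot be told apart. For 22 of the 24 the interaction was above 0, as for 9647 of all 16849 genes, with a median of 0.58. However, edgeR called 0, with 5 at an unadjusted p under 0.05, and DESeq2 also called 0. Without C57BL/6J tunicamycin 24 h replicate 2, 7 were called. Without C57BL/6J tunicamycin 6 h replicate 2, C57BL/6J cyclosporin 6 h replicate 2 or DBA/2J cyclosporin 24 h replicate 2, 1 was called.

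In the loop, distal and collecting duct list 5 of 20 were called, all positive, against 8.12% of all genes, with 2 in the sums and a median of 0.21. The thiazide-sensitive transporter gene Slc12a3 lay between 2265 and 4279 CPM (3664) in C57BL/6J and between 3217 and 4114 (3465) in DBA/2J at 6 h. The 24 h values were between 528 and 805 (662) and between 884 and 1478 (1150). The ranges overlapped at 6 h and were separate at 24 h, after falls of 2.39 and 1.57 (interaction 0.82 ± 0.13, SE; edgeR adjusted p = 4.4e-05). Pvalb, a calcium buffer of the distal convoluted tubule, fell by 2.96 and 1.83. Atp6v1b1, a proton pump subunit of intercalated cells, fell by 2.12 and 1.68, an interaction of 0.45 that was not called without DBA/2J control 6 h replicate 2 (edgeR adjusted p = 0.057; 0.285 in the sums). The list's count was 3 with any 1 of 8 libraries left out, 7 of them DBA/2J and 1 C57BL/6J cyclosporin 24 h replicate 1, and 8 without DBA/2J cyclosporin 24 h replicate 2.

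Among nuclear respiratory chain and citric acid cycle genes 2 of 20 were called, both positive, with Cox6c at 0.40 and Cox4i1 at 0.29, beside 14.4% of all genes. That count was 1 without DBA/2J control 6 h replicate 2, where Cox4i1 lost its call, and 4 without C57BL/6J cyclosporin 24 h replicate 3 or DBA/2J cyclosporin 24 h replicate 2. Of 13 proteins of the mitochondrial genome, 2 were called and both were positive, with mt-Nd5 at 0.51 and mt-Nd6 at 0.85. In fatty acid oxidation 1 of 20 was called, below the share of all genes, the thiolase gene Acaa2 at 0.72, and 2 or 3 without any 1 of 8 libraries. None of these 3 lists had a call in the sums. Mitochondrial genes took 14.6% to 17.8% of counts in C57BL/6J and 8.05% to 10% in DBA/2J at 6 h, and 5.43% to 7.87% and 3.11% to 4.12% at 24 h. With these genes left out 2572 genes were called, 2039 of them shared with the main fit. Beyond that fit, the part of this share in any interaction was not tested. In cholesterol synthesis 7 of 20 were called, 4 positive and 3 negative (8.12% and 6.24% of all genes), and 0 in the sums. Dhcr7, which makes the last step to cholesterol, fell by 0.69 and 1.25, while Hmgcs1, an early enzyme, fell by 1.26 and 0.91, and Sc5d changed by -0.11 and 0.19, both past the test.

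In the circadian clock list 5 of 15 were called, 4 positive and 1 negative (8.12% and 6.24% of all genes), and 0 in the sums. The count was 1 with no filter, 3 with nuclear genes only and 6 with the replicate block. Arntl, the activator BMAL1, changed by 0.04 in C57BL/6J without passing the test and fell by 0.36 in DBA/2J, whereas the repressor genes Per3 and Cry1 had interactions of 0.53 and 0.66. In the cell cycle list 4 of 20 were called, 3 positive and 1 negative, beside 14.4% of all genes, and 1 in the sums. That count was 1 with no filter, 2 with nuclear genes only and 5 with 12 group means or the replicate block. Top2a, which untangles chromosomes, fell by 1.51 and 0.48, and Rrm2, a ribonucleotide reductase subunit, changed by -0.09 in C57BL/6J without passing and fell by 0.65 in DBA/2J. Cdk1, the mitotic kinase, had an interaction of 0.93, whose call was lost without any 1 of 16 libraries. The clock count fell to 3 when any 1 of 12 libraries was left out, and the cycle count to 2 for 12 libraries, some of them the same. Extracellular matrix and TGF-beta targets had 3 of 20 called, Mmp13 at 0.85, Col4a2 at -0.44 and Loxl2 at -0.53, near the 14.4% of all genes; 1 was called in the sums, and Loxl2 lost its call without any 1 of 13 libraries. Interferon-stimulated genes also had 3 of 20, near that share, Ifit1 at 1.44, Irf1 at 0.60 and Ifi44 at -0.90. Their count was 0 in the sums and 5 without C57BL/6J control 6 h replicate 2.

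Genes of the major histocompatibility complex stood among the most negative. H2-Q10, a class I gene of the Qa region at chr17:35470089-35474563, lay between 0.0652 and 0.527 CPM (0.313) in C57BL/6J at 6 h and between 1.21 and 2.06 (1.57) at 24 h. In DBA/2J it lay between 33.4 and 45.1 (39.5) at 6 h and between 38.1 and 51.0 (42.5) at 24 h. DBA/2J was higher in every library at both times. H2-Q10 rose by 2.54 in C57BL/6J and changed by 0.15 in DBA/2J without passing the test (interaction -2.40 ± 0.21, SE; edgeR adjusted p = 2.7e-10). H2-Q2 rose by 2.2 and H2-Q1 by 3.37 in C57BL/6J, with interactions of -2.03 and -2.80. The H2-Q1 values start from a level near 0, between 0 and 0.173 CPM in C57BL/6J at 6 h. Of 30 H2 genes tested, a family looked at after these values were seen, 12 were called, 4 positive and 8 negative, beside 14.4% of all genes. Class I genes are alike in sequence and differ between strains, and the submitters' processing notes name GRCm38, the C57BL/6J genome, so the strain levels are uncertain.

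Further lead genes came from many functions. Rnase4, a secreted ribonuclease, fell by 0.87 in C57BL/6J and 2.97 in DBA/2J (interaction -2.10). Its DBA/2J medians were 72.4 CPM at 6 h and 10.1 at 24 h. Meltf, melanotransferrin, rose by 2.57 in C57BL/6J, where its 6 h level was 0 to 0.373 CPM, and fell by 0.92 in DBA/2J, an interaction of -3.49. Col26a1, a collagen, changed by -0.09 in C57BL/6J without passing the test and fell by 2.18 in DBA/2J. Tmem108 (interaction -1.59), Ergic1 (-0.86), which cycles between the endoplasmic reticulum and Golgi, and the netrin receptor gene Neo1 (-0.62) rose in C57BL/6J and did not pass the time test in DBA/2J.

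Positive lead genes included Car12, a membrane carbonic anhydrase, which fell by 1.94 in C57BL/6J and 0.77 in DBA/2J (interaction 1.17). Abr fell by 0.48 in C57BL/6J and rose by 0.35 in DBA/2J, and the matrix protein gene Vwa1 fell by 2.05 and rose by 0.32. Prune2, Syt7 and Lrrn1 fell in C57BL/6J by 1.99, 1.05 and 2.39 and did not pass the time test in DBA/2J. Phlda1 rose by 0.24 and 1.27, and Fam78b by 2.16 in DBA/2J only past the threshold. Among the largest, Adh7, an alcohol dehydrogenase, lay between 0.0533 and 0.941 CPM in C57BL/6J and between 0.0921 and 0.887 in DBA/2J at 6 h. At 24 h it lay between 0.922 and 2.36 in C57BL/6J and between 6.29 and 15 in DBA/2J. The strains overlapped at 6 h and were apart at 24 h, an interaction of 2.71 ± 0.51 (SE; edgeR adjusted p = 0.00032). Asb5 and Bst1 had interactions of 2.84 and 3.23 with SEs of 0.55 and 0.56. In control, tunicamycin and cyclosporin libraries alone the interaction was 2.93, 1.18 and 3.84 for Adh7, 4.38, 1.09 and 2.96 for Asb5, and 2.51, 2.35 and 4.55 for Bst1.

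The treatments gave no detectable difference in the interaction. The joint test of whether it differed among control, tunicamycin and cyclosporin libraries called 0 genes by edgeR, with 400 at an unadjusted p under 0.05 and a smallest adjusted p of 0.943, and DESeq2 also called 0. Each treatment alone, with 3 libraries per strain and time, called 117 genes in controls, 65 with tunicamycin and 45 with cyclosporin, of which 115, 65 and 45 were among the 2420. Of the 2420, 2379 (98.3%) had 1 sign in all 3 treatments, against 50.5% of all genes; these libraries are part of the pooled fit, so this is a description. In each treatment alone 15 genes were called. Of these, Gsta2, Hspb1, Phlda1, Prune2, Ergic1, H2-Q10, H2-Q2, Hgsnat, Neo1, Rnase4 and Tmem108 were already named, and Gm10639, H2-T-ps, Lypd1 and Pcdh7 were named after their values were seen. H2-T-ps, a class I pseudogene, had medians of 1.23 and 19.2 CPM at 6 h and 24 h in C57BL/6J and 4.75 and 5.13 in DBA/2J. Those of Lypd1 were 0.059 and 1.68 CPM in C57BL/6J and 2.92 and 1.98 in DBA/2J, and those of the cadherin gene Pcdh7 were 3.57 and 8.75, and 13.4 and 11.4.

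**Figure D5:**
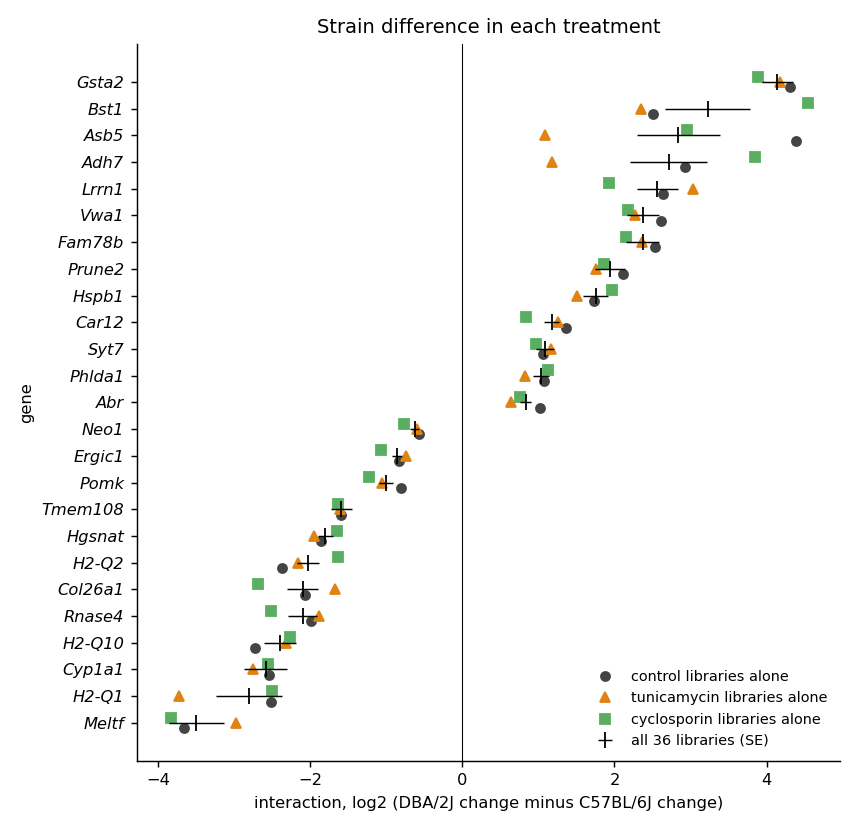
For each lead gene shown (vertical axis), marks give the interaction in log2 from the control, tunicamycin and cyclosporin libraries alone, and the black tick with SE gives the value from all 36 libraries. Every mark lies on the same side of 0 as its gene's tick, which the naming rule required of genes named for the size of their interaction. The other genes were chosen by p-value from the fit that holds these libraries, so the shared side is a description. Asb5, Adh7 and Bst1 spread most widely.

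Markers of other cell types were compared as whole lists, whose counts stand beside the 14.4% of all genes called, 8.12% positive and 6.24% negative. Of 7 T and NK cell genes tested, 7 fell in C57BL/6J and 6 in DBA/2J, beside 40.6% and 40% of all genes. For the interaction 2 of 7 tested were called and both were positive, with Cd3e at 2.74 and Cd3g at 1.92, and 1 was called in the sums. Their summed level lay between 13.4 and 19 CPM in C57BL/6J and 18.4 and 25.7 in DBA/2J at 6 h, and between 2.79 and 5.55 and 6.48 and 14.4 at 24 h. Macrophage markers had 2 of 9 called, both positive, with Lyz2 at 1.25 and Adgre1 at 0.84, and 0 in the sums per replicate number. Their summed level was 183 to 321 and 206 to 283 CPM at 6 h and 180 to 273 and 244 to 380 at 24 h. B cell markers had 1 of 7 called, near the share of all genes, Igkc at -2.32 (0 in the sums per replicate number, 2 without DBA/2J control 6 h replicate 1). Igkc was higher in DBA/2J in every library at 6 h; the list summed to 26 to 45.2 CPM and 152 to 549 at 6 h, and to 8.15 to 65.4 and 21.4 to 92.9 at 24 h. Podocyte markers had 3 of 10 called, all negative, Plce1 at -0.62, Magi2 at -0.57 and Ptpro at -0.63. Their count was 0 in the sums per replicate number and 5 without DBA/2J tunicamycin 6 h replicate 1. Ptpro lost its call without any 1 of 5 libraries. The podocyte summed level lay between 2510 and 3020 CPM in C57BL/6J and 1470 and 2510 in DBA/2J at 6 h, and between 1460 and 1900 and 510 and 1310 at 24 h. The part of these markers in the other interactions was not tested.

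By the main edgeR fit 0 markers were called among 10 of endothelium, 10 of fibroblast and mural cells, 3 of neutrophils and 1 of adipocytes. With the replicate block edgeR called 1, 1, 0 and 1. At an unadjusted p under 0.05 these lists had 2, 2, 1 and 1, DESeq2 called 1 neutrophil marker, and each list had 1 call when some single library was left out. Erythroid markers also had 1 of 7 called, near the 14.4% of all genes, the mitochondrial iron carrier gene Slc25a37 at 0.31, and 0 in the sums. It went against its list, whose median interaction was -0.24 with 2 of 7 above 0. Slc25a37 rose in both strains, while 5 of the 7 fell in C57BL/6J and 6 in DBA/2J (40.6% and 40% of all genes). The 1 adrenal cortex gene tested, Star, was called at -0.62, and not when any 1 of 10 libraries was left out. The defining genes Ly6g, Camp and Ngp of neutrophils, Plin1, Cfd and Retn of adipocytes, and Cyp11b1, Cyp11b2 and Cyp21a1 of adrenal cortex had at most 3 counts in every library. Of 12 genes known to vary between mouse strains 8 were tested and 2 called, beside 14.4% of all genes, P2rx7 at 0.85 and Nnt at 0.40. That count was 0 in the sums and 3 with the replicate block. It was 1 with median-ratio factors, nuclear genes only, no filter, DESeq2 or 12 group means, where Nnt lost its call. Nnt, a mitochondrial transhydrogenase gene that carries a deletion in C57BL/6J, fell by 2.06 and 1.66, was 0.84 and 1.24 higher in DBA/2J at 6 h and 24 h, and lost its call when any 1 of 27 libraries was left out.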

How the data were processed

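The authors deposited whole-number counts per Ensembl gene (55487 genes), without normalization. STAR 2.7.9a, featureCounts 1.5.1 and GRCm38 are named in the submitters' processing notes; the annotation release, strand setting and read filters are not given in the sources used here, so overlapping and antisense genes are uncertain. Libraries were stranded mRNA preparations, per the labels' protocols. Symbols were found for 55141 IDs, and positions were taken from GENCODE M21 (GRCm38).

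Counts of the 36 libraries were analysed with edgeR 4.0.16 in R 4.3.3: TMM factors, edgeR's filter on low counts by strain and time, and a robust quasi-likelihood fit with 4 means for strain and time, treatment as an additive term and 30 residual degrees of freedom. P-values were adjusted by the Benjamini-Hochberg method over 16849 genes, and a gene was called at an adjusted p under 0.05. SE was the log2 value divided by the square root of F. In simulated counts with 200 changed genes of 16631, the fit recovered 75% of interactions of 1 and 52% of 0.58 on the log2 scale. Of its calls 3.05% were false, and of those by DESeq2 7.53%. Each simulated library was drawn independently, so these shares do not cover slices that come from the same mouse.

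Genes named by rule, with a mean log2 CPM of at least 1, were the 10 smallest p-values and the 4 largest interactions in each direction, up to 3 called members of each of 31 lists (10 of cell type markers), and Havcr1, Lcn2, Hspa5, Ddit3, Vegfa and Slc2a1. Predicted and unnamed genes were passed over, as were pseudogenes, which the rule as written did not mention, and the largest had to share their sign in all treatments. 1 gene that the rule names is not reported here. The members and lists were chosen with earlier results of these data known. Alternatives were median-ratio factors, nuclear genes only, no filter, DESeq2 1.42.0, 12 group means, a replicate block, sums per replicate number, each treatment alone and each library left out. Promoter sequences are from RefSeq on GRCm38.p6.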

Additional observations from a re-analysis of the deposited data

Results flagged for a closer look

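The change from 6 h to 24 h differed between the strains, by the interaction test itself, for 2420 genes.

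In groups of 9 libraries, 8 of 104 tests on the 26 lead genes had 1 library far from the rest, and chance gives about 1 in 20. High libraries were DBA/2J 6 h cyclosporin replicate 1 for Gsta2 (8.63 CPM), C57BL/6J 24 h cyclosporin replicate 1 for Vwa1 (8.24 CPM), DBA/2J 24 h cyclosporin replicate 2 for Syt7 (12.8 CPM) and C57BL/6J 24 h tunicamycin replicate 2 for Tmem108 (31.7 CPM). Low libraries were C57BL/6J 6 h cyclosporin replicate 2 for Car12 (249 CPM) and for Ergic1 (62.2 CPM), DBA/2J 6 h control replicate 1 for Vwa1 (10.4 CPM) and DBA/2J 6 h control replicate 2 for Pomk (8.17 CPM). All 7 genes remained called for the interaction with any 1 library left out.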

How the results depend on the processing

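With each library left out in turn, the interaction was called for 2161 to 2843 genes; median-ratio factors gave 2432, nuclear genes 2572, no filter 1937, DESeq2 2741 and 12 group means 2252. Sums per replicate number gave 548, and control, tunicamycin and cyclosporin libraries alone 117, 65 and 45; those settings hold fewer samples. The strain difference numbered 4450, 3944 and 5073 genes at 6 h and 3769, 2706 and 2582 at 24 h in the 3 treatments alone. With the replicate number as a block 2948 genes were called, 2409 of them shared. As a check of the pairing, libraries that share a number deviated together with a mean r of 0.0343 in C57BL/6J and 0.151 in DBA/2J, 13 and 27 of 45 pairs each were over 0.1, and 28 of 36 libraries correlated best with their own number, a hint from the data and not the design.

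Of 84 named and called genes, 77 were called with every library left out, 69 under all full-size alternatives and 42 in the sums. The calls of Atp6v1b1 and Cox4i1 were lost without DBA/2J control 6 h replicate 2; those of Ptpro, Star, Loxl2, Cdk1 and Nnt were lost without any 1 of 5, 10, 13, 16 and 27 libraries. Nnt reversed in cyclosporin libraries alone, to -0.046; the cause was not tested. Treating the 36 libraries as independent is a limit, since slices of 1 mouse may share numbers; small interactions were often missed in simulated counts of this depth.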
